A study of Mus musculus with 4 samples.

Results

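The genes described here are the subunits, activators, inhibitor and assembly chaperones of the proteasome, taken as every human gene on a primary chromosome whose symbol is PSMA, PSMB, PSMC, PSMD, PSME, PSMF or PSMG followed by a number. The rule found 50 entries for 48 symbols, among 59490 entries analysed. PSMA1 and PSMA2 each stand on 2 overlapping entries, of which the one with the greater length in the files was used. RNA came from CD8+ T cells with high CD11a, an integrin chain (ITGAL) that marks antigen-experienced T cells, sorted from peripheral blood of patients of a therapy with PD-1 antibody, which blocks an inhibitory receptor of T cells. Each of 4 groups held 1 library: responder after therapy, non-responder after therapy, responder before therapy and non-responder before therapy. The antibody was given every 3 weeks, and 4 doses made a cycle, per the labels. The treatment protocol places all collections after such a cycle, which conflicts with the group labels of the 2 libraries from before therapy, and groups were taken from the group labels. The design names 2 cohorts of patients but does not say whether libraries before and after therapy share patients or pool several, so time, patient and cohort cannot be told apart. A PD-1-positive tag stands in the names of the libraries from before therapy and not in the others, and whether it marks a gate is not stated. The organism label is mouse, whereas the gene entries are human (hg38) and came from patients, so the values were read as human.

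The proteasome is the barrel-shaped protease that degrades most ubiquitin-tagged proteins of the cell. Its 20S core stacks rings of alpha subunits (PSMA), which gate entry, on rings of beta subunits (PSMB), of which PSMB5, PSMB6 and PSMB7 carry the active sites. Interferon-gamma induces the alternative catalytic subunits PSMB8, PSMB9 and PSMB10, which replace them in the immunoproteasome. Lymphocytes carry immunoproteasomes without stimulation, and their products feed the presentation of peptides on MHC class I. The 19S regulatory particle, built of ATPases (PSMC) and other subunits (PSMD), binds and unfolds ubiquitin-tagged substrates, whereas the activators PSME1 to PSME4 open the core without ubiquitin.

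The libraries held between 65500644 counts, in the non-responder before therapy, and 129773591 counts, in the responder after therapy. Levels are CPM, counts scaled to TMM-adjusted library sizes, and intervals cover counting error alone. With 1 library a group, a difference between 2 libraries has no replicate check and no p-value. Sorted-cell markers were abundant: the 6 genes CD8A, CD8B, CD3D, CD3E, CD3G and ITGAL summed to 4536 CPM (responder) and 3211 CPM (non-responder) after therapy, and 4405 CPM (responder) and 3653 CPM (non-responder) before it. The 15 monocyte and neutrophil markers summed to 2004 CPM (responder) and 9312 CPM (non-responder) after therapy, and 224 CPM (responder) and 257 CPM (non-responder) before it, and none was at 0 in any library. The 8 epithelial markers summed to 2.56 CPM (responder) and 3.48 CPM (non-responder) after therapy, and 216 CPM (responder) and 14.8 CPM (non-responder) before it, with EPCAM at 4.71 CPM in the responder before therapy and at 0 in the other 3 libraries. The 8 platelet markers summed to 25.2 CPM (responder) and 211 CPM (non-responder) after therapy, and 96.5 CPM (responder) and 99.9 CPM (non-responder) before it, with 1 of them at 0 in the non-responder before therapy. The near-equal sums before therapy hid opposite directions. SPARC made up much of them, at 66.0 CPM (responder) and 32.0 CPM (non-responder). Of the 5 platelet markers with at least 5 CPM in either library before therapy, the 4 besides SPARC were at least 1.5-fold lower for the responder. Below that level, ITGA2B and TREML1 were higher for the responder and GP9 was lower. The 5 NK cell markers, none at 0, summed to 260.2 CPM (responder) and 143 CPM (non-responder) after therapy, and 191 CPM (responder) and 129 CPM (non-responder) before it. The non-responder after therapy thus stood apart for monocyte and platelet transcripts and the responder before therapy for epithelial ones, and NK cell markers summed higher for the responder at each time. In bulk RNA, fewer cells of a type and less RNA per cell cannot be told apart.

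Of the 48 genes, 46 reached at least 5 CPM in a library, all 46 in every library. The exceptions are tissue-specific. PSMB11, the catalytic subunit of the thymoproteasome, made in thymic epithelium, had no count in any library, which allows up to 0.0235 CPM (responder) and 0.0268 CPM (non-responder) after therapy, and up to 0.0360 CPM (responder) and 0.0460 CPM (non-responder) before it (3 counts per library). PSMA8, the alpha subunit of the testis proteasome, stood at 2.34 CPM (responder) and 1.85 CPM (non-responder) after therapy, and 1.69 CPM (responder) and 2.76 CPM (non-responder) before it. All genes together summed to 7017 CPM (responder) and 6388 CPM (non-responder) after therapy, and 8184 CPM (responder) and 7456 CPM (non-responder) before it. The summed level was lower after than before therapy in responder and in non-responder libraries.

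Per kilobase of the length the files give, the proteasome activator PSME1 was the most abundant gene of the set in all 4 libraries, at 386 CPM per kb (responder) and 304 CPM per kb (non-responder) after therapy, and 483 CPM per kb (responder) and 456 CPM per kb (non-responder) before it. PSME1 forms, with PSME2, the interferon-induced cap PA28. PSME2 stood per kilobase at 98.6 CPM per kb (responder) and 90.7 CPM per kb (non-responder) after therapy, and 133 CPM per kb (responder) and 117 CPM per kb (non-responder) before it. PSMB8, an immunoproteasome subunit, ranked second per kilobase in all libraries except the non-responder before therapy, where PSMA7 did. PSMG4, a chaperone of 20S assembly, was lowest per kilobase among the 46 in each library, between 1.22 and 2.03 CPM per kb. The files head this length as coding length and do not say which transcripts it covers, so the order of genes on this scale depends on it.

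The median spread of proteasome genes over the 4 libraries was smaller than that of all genes. The highest library stood 1.53-fold above the lowest in the median over the 46 genes, against 1.96-fold over the 13233 genes with at least 5 CPM in a library. A spread of at least 2-fold was found in 6 of the 46 (13%), against 47.5% of all genes. None of the 46 had a count of 0 in a library, whereas 201 of the 13233 genes did. The 13233 genes were not matched to the 46 by level, and the part of level in these contrasts was not tested. The 6 with a spread of at least 2-fold were PSMB5, PSME4, PSMG3, PSMB4, PSMC2 and PSMD10. PSMF1, which encodes the proteasome inhibitor PI31, varied least, at 138 CPM (responder) and 136 CPM (non-responder) after therapy, and 136 CPM (responder) and 129 CPM (non-responder) before it. PSMB1, a structural subunit of the beta ring, came next, between 269 and 299 CPM.

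**Figure D1:**
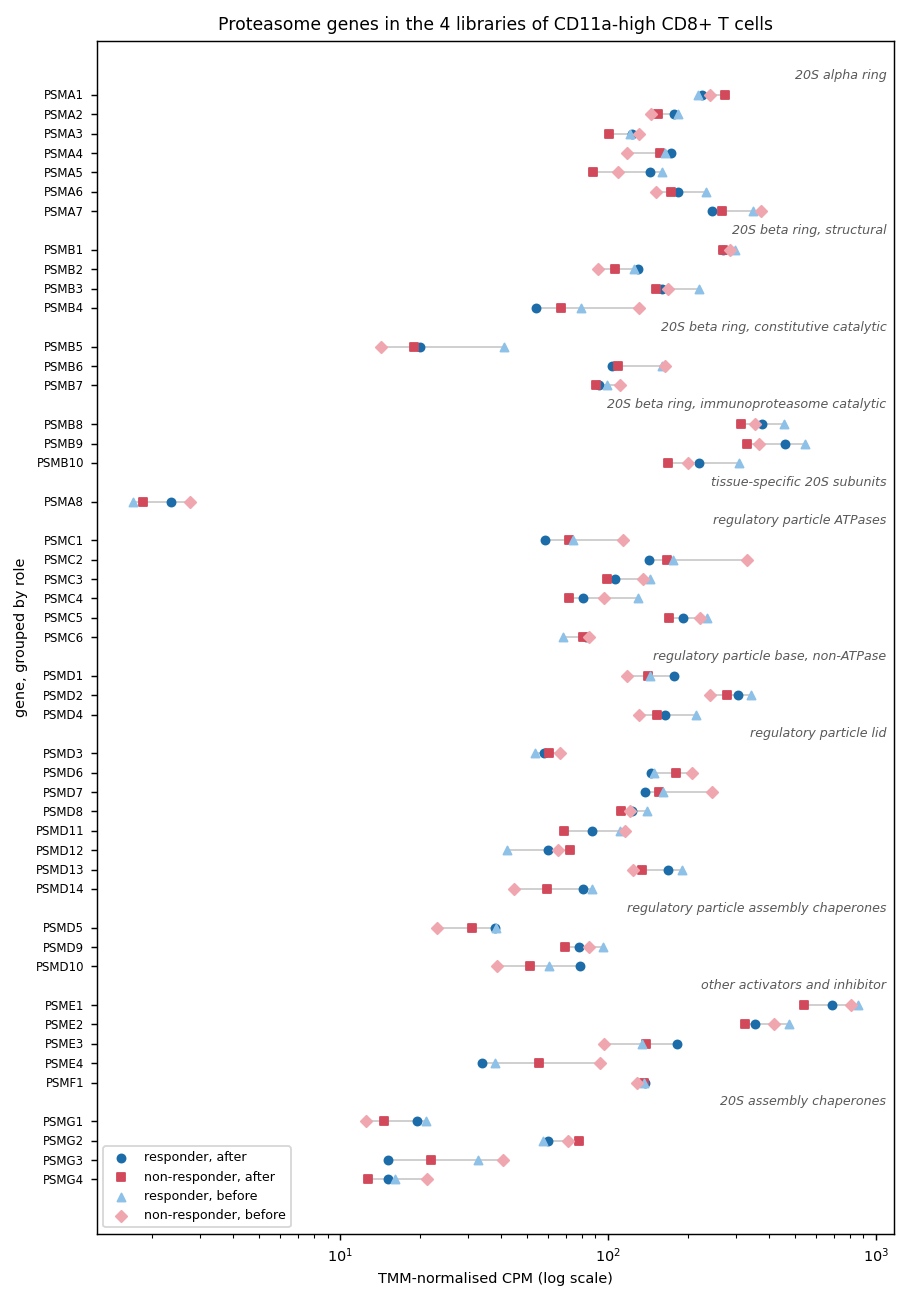
TMM-normalised CPM (horizontal, log scale) of each proteasome gene detected, grouped by role, with 1 point for each of the 4 libraries and a grey line from the lowest to the highest. PSMF1 and PSMB1 show almost no spread, whereas PSMB5, PSME4 and PSMG3 span over 2.7-fold.

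Per kilobase, each catalytic gene of the immunoproteasome stood above its constitutive counterpart in every library, and the ratio of their sums was higher in the responder at both times. PSMB9, which takes the place of PSMB6, stood at 457 CPM (responder) and 331 CPM (non-responder) after therapy, and 544 CPM (responder) and 366 CPM (non-responder) before it. PSMB10, which takes the place of PSMB7, stood at 219.8 CPM (responder) and 167 CPM (non-responder) after therapy, and 309 CPM (responder) and 199.8 CPM (non-responder) before it. PSMB8, which takes the place of PSMB5, stood at 375 CPM (responder) and 314 CPM (non-responder) after therapy, and 454 CPM (responder) and 354 CPM (non-responder) before it. For all 3 genes both responder libraries lay above both non-responder libraries, and the level after therapy lay below the level before therapy in responder and in non-responder. After therapy the responder over non-responder ratio was 1.38-fold for PSMB9 (log2 ratio 0.46, 95% interval 0.45 to 0.48), 1.31-fold for PSMB10 (log2 ratio 0.39, 95% interval 0.37 to 0.42) and 1.20-fold for PSMB8 (log2 ratio 0.26, 95% interval 0.24 to 0.28). Before therapy it was 1.49-fold, 1.55-fold and 1.28-fold for these genes in the same order. The 3 genes summed to 1052 CPM (responder) and 812 CPM (non-responder) after therapy, and 1308 CPM (responder) and 919 CPM (non-responder) before it. The lowest sum was thus in the library with the most monocyte and platelet transcripts. The NK cell markers also summed higher in the responder at both times, with 4 of the 5 higher at each. KLRC1 was lower in the responder after therapy and NCAM1 before it. The part of other cells' RNA in the differences was not tested.

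The constitutive catalytic genes did not share that order. PSMB6 stood at 104 CPM (responder) and 109 CPM (non-responder) after therapy, and 159 CPM (responder) and 164 CPM (non-responder) before it, so it differed more between times than between responses, and scaling by library size alone turned its sign by response before therapy. PSMB7 stood at 92.8 CPM (responder) and 90.6 CPM (non-responder) after therapy, and 99.7 CPM (responder) and 111 CPM (non-responder) before it. PSMB5 stood at 19.9 CPM (responder) and 18.9 CPM (non-responder) after therapy, and 41.0 CPM (responder) and 14.3 CPM (non-responder) before it. Before therapy its responder level was 2.87-fold that of the non-responder (log2 ratio 1.52, 95% interval 1.42 to 1.63), and the other 3 libraries lay between 14.3 and 19.9 CPM. The same responder library carried the epithelial transcripts, with a marker sum of 216 CPM, against 14.8 CPM (non-responder) before therapy, and their part in the PSMB5 level was not tested. PSMB5 had the smallest counts of the 6, from 931 to 3414.

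Summed per kilobase, the immunoproteasome genes stood to the constitutive genes as 3.37 (95% interval 3.33 to 3.41) in the responder and 2.59 (95% interval 2.55 to 2.63) in the non-responder after therapy, and as 3.02 (95% interval 2.98 to 3.06) in the responder and 2.20 (95% interval 2.16 to 2.24) in the non-responder before therapy. This ratio does not depend on how libraries are scaled. It was 1.30-fold higher in the responder after therapy (log2 difference 0.38, 95% interval 0.35 to 0.41) and 1.37-fold higher before therapy (log2 difference 0.46, 95% interval 0.43 to 0.49). On the log2 scale the ratio averaged 1.67 ± 0.112 in responder and 1.26 ± 0.167 in non-responder libraries (SD, n = 2 each; exact permutation test, two-sided, p = 0.333, the smallest p that 2 against 2 libraries allow). Between times the exact permutation test gave p = 0.667 for a log2 difference of 0.20 (n = 2 each). The direction with time in the responder turned with how the ratio was formed. As sums the log2 difference was 0.16 in the responder and 0.24 in the non-responder, and as the median of the 3 positions -0.39 in the responder. Without PSMB9 and PSMB6 it was -0.0426 in the responder and -0.00922 in the non-responder. No interval was computed without this position, so whether these small values lie beyond counting error is not known.

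The 3 exchange positions differed in how they contributed. The PSMB9 to PSMB6 ratio per kilobase was 2.08 (95% interval 2.04 to 2.12) in the responder and 1.43 (95% interval 1.40 to 1.46) in the non-responder after therapy, and 1.61 (95% interval 1.58 to 1.64) in the responder and 1.05 (95% interval 1.03 to 1.08) in the non-responder before therapy. At this position the ratio was higher in the responder at both times and higher after therapy in both responder and non-responder. The PSMB10 to PSMB7 ratio was 2.28 (95% interval 2.23 to 2.33) in the responder and 1.78 (95% interval 1.74 to 1.82) in the non-responder after therapy, and 2.99 (95% interval 2.92 to 3.07) in the responder and 1.73 (95% interval 1.69 to 1.79) in the non-responder before therapy. Here too the responder lay higher at both times, by 1.28-fold after and 1.73-fold before therapy. The PSMB8 to PSMB5 ratio was 16.6 (95% interval 15.9 to 17.2) in the responder and 14.6 (95% interval 14.0 to 15.3) in the non-responder after therapy, and 9.74 (95% interval 9.41 to 10.1) in the responder and 21.8 (95% interval 20.4 to 23.3) in the non-responder before therapy. It thus went the other way before therapy, where the ratio in the responder was 0.447 of that in the non-responder, the pair of libraries in which PSMB5 stood at 41.0 CPM (responder) and 14.3 CPM (non-responder).

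**Figure D2:**
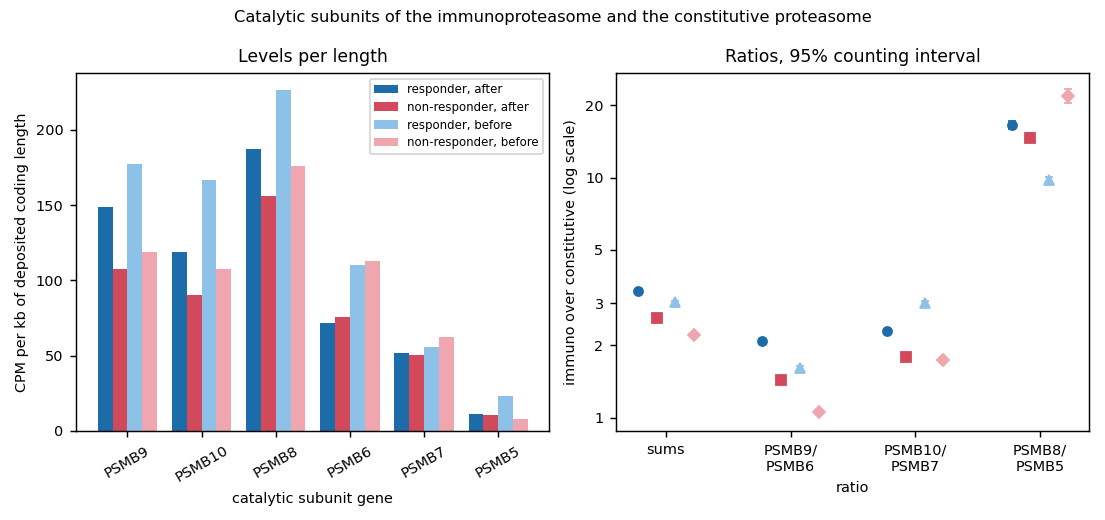
Left, level per kilobase of each catalytic subunit gene in the 4 libraries (bars from 0, CPM per kb). Right, ratio of immunoproteasome to constitutive genes, as sums of 3 and for each exchange position, on a log scale, with 95% counting intervals. The sum ratio is 3.37 in the responder and 2.59 in the non-responder after therapy, and 3.02 in the responder and 2.20 in the non-responder before therapy, while PSMB8/PSMB5 is lowest in the responder before therapy.

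Neighbouring entries bear on these genes, because the strand and overlap settings of the counting are not given. PSMB9 (chromosome 6: 32844136 to 32859585, hg38) lies over 56.8% of its length on the entry of TAP1, a chain of the transporter that carries proteasome products into the endoplasmic reticulum. PSMB8 (chromosome 6: 32840717 to 32844703) and PSMB9 overlap by 568 bases, and both overlap the antisense entry PSMB8-AS1. PSMB8-AS1 stood at 331 CPM (responder) and 184 CPM (non-responder) after therapy, and 302 CPM (responder) and 201 CPM (non-responder) before it. TAP1 stood at 795 CPM (responder) and 426 CPM (non-responder) after therapy, and 648 CPM (responder) and 412 CPM (non-responder) before it. Both therefore had the responder above the non-responder at each time, as PSMB8 and PSMB9 did, and reads of the 4 entries cannot be told apart where they overlap. PSMB10 (chromosome 16: 67934502 to 67937087) shares 58.6% of its length with the entry CTC-479C5.12, which stood at 178 CPM (responder) and 147 CPM (non-responder) after therapy, and 256 CPM (responder) and 163 CPM (non-responder) before it. The copies of PSMB8 and PSMB9 on alternate versions of the MHC region had no count in any library. The 2 entries of PSMA2 (chromosome 7) held nearly the same counts, 22509 and 22316 in the responder after therapy.

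Across the whole set, responder and non-responder libraries differed in the same direction at both times for most proteasome genes. After therapy 33 of the 46 genes (71.7%) were higher in the responder, against 55.1% of all genes, with a median log2 ratio of 0.13, against 0.07 over the 12434 genes at or above 5 CPM in one of the libraries compared. Before therapy 28 (60.9%) were higher, against 53.4% of all genes, with a median of 0.13, against 0.06 over 12361 genes. The responder was higher at both times for 28 of 46 genes (60.9%), against 36.9% of all genes, and lower at both times for 13 (28.3%), against 28.6%. Signs were opposite for 5 genes (10.9%), PSMA3, PSMB7, PSMC6, PSMD11 and PSMG4, against 34.5%. Both responder libraries lay above both non-responder libraries for 18 of 46 genes (39.1%), against 22.2% of all genes, and below both for 6 (13%), against 16.2%. The differences were small. After therapy 2 genes (PSMA5, PSMD10) passed 1.5-fold toward the responder and 1 (PSME4) toward the non-responder, where 17.4% and 15.5% of all genes were. Before therapy 9 were at least 1.5-fold higher and 6 lower, where 23.5% and 19% of all genes were. Only PSMB5 was at least 2-fold higher and only PSME4 at least 2-fold lower before therapy (11.5% and 8.93% of all genes), and no gene of the set was 2-fold apart after therapy (5.79% of all genes higher, 8.86% lower).

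**Figure D3:**
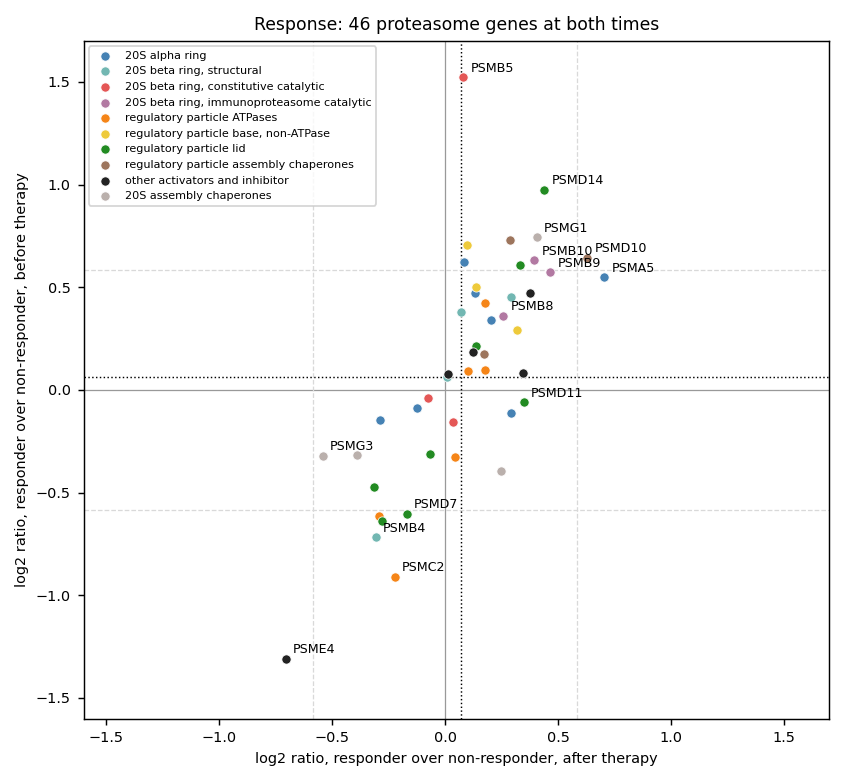
Log2 ratio of responder over non-responder after therapy (horizontal) and before therapy (vertical) for the 46 proteasome genes, coloured by role. Dotted lines mark the median of all genes and dashed lines 1.5-fold. The immunoproteasome genes sit in the upper right, PSME4 in the lower left at -0.71 and -1.31, and PSMB5 stands apart by its ratio before therapy alone.

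In the alpha ring, 4 of the 7 genes (PSMA2, PSMA4, PSMA5 and PSMA6) stood higher in the responder both after and before therapy, and PSMA1 and PSMA7 stood lower. Of all genes, 36.9% stood higher in the responder at both times and 28.6% lower. These shares also apply to the directions given for the other roles below. PSMA5 stood at 144 CPM (responder) and 88.2 CPM (non-responder) after therapy, and 160.0 CPM (responder) and 109 CPM (non-responder) before it. It had the largest ratio above 1 in the set after therapy (log2 ratio 0.70, 95% interval 0.67 to 0.74) and a ratio of 1.46 before it. PSMA6 stood at 183 CPM (responder) and 172 CPM (non-responder) after therapy, and 232 CPM (responder) and 151 CPM (non-responder) before it, and 99.95% of its entry lies within that of KIAA0391, which stood at 229 CPM (responder) and 181 CPM (non-responder) after therapy, and 262 CPM (responder) and 166 CPM (non-responder) before it. PSMA7 separated the times rather than the responses, at 244 CPM (responder) and 266 CPM (non-responder) after therapy, and 349.7 CPM (responder) and 372 CPM (non-responder) before it. PSMA1 stood at 224 CPM (responder) and 274 CPM (non-responder) after therapy, and 218 CPM (responder) and 241 CPM (non-responder) before it, and its second entry at 187 CPM (responder) and 206 CPM (non-responder) after therapy, and 186 CPM (responder) and 179 CPM (non-responder) before it. The signs of PSMA1 before therapy differed between its entries. PSMA3 ranged from 101 to 131 CPM, PSMA2 from 144 to 183 CPM and PSMA4 from 118 to 172 CPM.

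Among the structural genes of the beta ring, PSMB4 was lower in the responder at both times and PSMB1, PSMB2 and PSMB3 were higher. PSMB4 stood at 54.0 CPM (responder) and 66.8 CPM (non-responder) after therapy, and 79.6 CPM (responder) and 131 CPM (non-responder) before it, a responder level 1.65-fold lower before therapy (log2 ratio -0.72, 95% interval -0.76 to -0.67). PSMB2 stood at 130.2 CPM (responder) and 106 CPM (non-responder) after therapy, and 125 CPM (responder) and 91.7 CPM (non-responder) before it, with both responder libraries on top. PSMB3 stood at 159.7 CPM (responder) and 152 CPM (non-responder) after therapy, and 219 CPM (responder) and 168 CPM (non-responder) before it, highest in the responder before therapy. The 4 structural genes summed to 614 CPM (responder) and 594 CPM (non-responder) after therapy, and 723 CPM (responder) and 677 CPM (non-responder) before it.

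The 6 ATPases of the 19S particle, which unfold substrates and thread them into the core, split evenly before therapy. In the responder PSMC3, PSMC4 and PSMC5 were higher at both times. PSMC1 and PSMC2 were lower at both. PSMC2 stood at 142 CPM (responder) and 166 CPM (non-responder) after therapy, and 175 CPM (responder) and 329.6 CPM (non-responder) before it, so the non-responder before therapy stood apart from the other 3 libraries. The responder level of PSMC2 was 1.17-fold lower after therapy (log2 ratio -0.22, 95% interval -0.25 to -0.19) and, with a larger gap, 1.88-fold lower before it (log2 ratio -0.91, 95% interval -0.94 to -0.88). PSMC1 stood at 58.4 CPM (responder) and 71.6 CPM (non-responder) after therapy, and 74.2 CPM (responder) and 114 CPM (non-responder) before it, with the same library on top. PSMC4 stood at 80.7 CPM (responder) and 71.5 CPM (non-responder) after therapy, and 129 CPM (responder) and 96.5 CPM (non-responder) before it. The summed ATPase level was highest in that library too, with 662 CPM (responder) and 658 CPM (non-responder) after therapy, and 826 CPM (responder) and 980.3 CPM (non-responder) before it. NRDE2, over 40% of PSMC1, stood at 48.1 CPM (responder) and 51.7 CPM (non-responder) after therapy. Before it, NRDE2 stood at 59.6 CPM (responder) and 98.2 CPM (non-responder). DNAJC2, over 620 bases of PSMC2, stood at 49.2 CPM (responder) and 62.9 CPM (non-responder) after therapy. Before it, DNAJC2 stood at 53.2 CPM (responder) and 165 CPM (non-responder). Both were highest in the non-responder before therapy, and their part in the PSMC1 and PSMC2 levels was not tested.

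The 3 base subunits that are not ATPases had higher responder levels at both times. PSMD2, a scaffold that docks ubiquitin-binding shuttles, stood at 307 CPM (responder) and 279.6 CPM (non-responder) after therapy, and 341 CPM (responder) and 241 CPM (non-responder) before it. PSMD4, a receptor of ubiquitin chains, stood at 164 CPM (responder) and 153 CPM (non-responder) after therapy, and 213 CPM (responder) and 131 CPM (non-responder) before it. PSMD1, the other scaffold, stood at 176 CPM (responder) and 142 CPM (non-responder) after therapy, and 144 CPM (responder) and 118 CPM (non-responder) before it. For each of them the non-responder before therapy was the lowest library. PSMD2 lies wholly within the entry of EIF2B5. EIF2B5 stood at 124 CPM (responder) and 119 CPM (non-responder) after therapy, and 158 CPM (responder) and 113 CPM (non-responder) before it. It had the same order of libraries as PSMD2, and its part in the PSMD2 level was not tested.

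The 8 genes of the 19S lid fell into 2 groups by direction. PSMD14, the deubiquitinase that removes ubiquitin chains before degradation, stood at 80.5 CPM (responder) and 59.4 CPM (non-responder) after therapy, and 87.6 CPM (responder) and 44.6 CPM (non-responder) before it. Its ratio was 1.35-fold after therapy (log2 ratio 0.44, 95% interval 0.39 to 0.48) and 1.97-fold before therapy (log2 ratio 0.98, 95% interval 0.91 to 1.04), with both responder libraries above both non-responder libraries. PSMD13 stood at 168 CPM (responder) and 134 CPM (non-responder) after therapy, and 189.8 CPM (responder) and 124 CPM (non-responder) before it, and PSMD8 ranged from 112 to 141 CPM, each with the responder higher at both times. Against them, PSMD7, the partner of PSMD14 in its dimer, stood at 138 CPM (responder) and 155 CPM (non-responder) after therapy, and 161 CPM (responder) and 245 CPM (non-responder) before it. PSMD6 stood at 145 CPM (responder) and 181 CPM (non-responder) after therapy, and 149 CPM (responder) and 207 CPM (non-responder) before it. PSMD12 stood at 59.7 CPM (responder) and 72.5 CPM (non-responder) after therapy, and 42.0 CPM (responder) and 65.4 CPM (non-responder) before it. PSMD3 ranged from 53.7 to 66.6 CPM. All 4 had lower responder levels at both times, and PSMD3, PSMD6 and PSMD7 were highest in the non-responder before therapy. PSMD11 was the lid gene of opposite signs, which became equal when libraries were scaled by size alone, at 87.3 CPM (responder) and 68.6 CPM (non-responder) after therapy, and 112 CPM (responder) and 116 CPM (non-responder) before it. The lid genes summed to 859 CPM (responder) and 842 CPM (non-responder) after therapy, and 936 CPM (responder) and 989.9 CPM (non-responder) before it. The entry AC009120.6, over 12.2% of PSMD7, ranged from 70.4 to 116 CPM and was also highest in the non-responder before therapy. PSMD6-AS2, over 11.9% of PSMD6, was highest in the non-responder after therapy, at 46.3 CPM. The part of these entries in the PSMD7 and PSMD6 levels was not tested.

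The 3 chaperones that help assemble the 19S base, PSMD5, PSMD9 and PSMD10, also had higher responder levels at both times. PSMD10 (gankyrin) stood at 79.0 CPM (responder) and 51.1 CPM (non-responder) after therapy, and 60.6 CPM (responder) and 38.7 CPM (non-responder) before it. Of the set it alone had a ratio of at least 1.5 at both times (log2 ratio 0.63, 95% interval 0.58 to 0.68 after therapy; log2 ratio 0.64, 95% interval 0.58 to 0.71 before therapy), or 2.17% of the 46, against 8.43% of all genes. PSMD5 stood at 38.0 CPM (responder) and 31.2 CPM (non-responder) after therapy, and 38.4 CPM (responder) and 23.1 CPM (non-responder) before it. The antisense entry PSMD5-AS1, over 66.1% of that gene, stood at 23.6 CPM (responder) and 35.6 CPM (non-responder) after therapy, and 50.3 CPM (responder) and 51.3 CPM (non-responder) before it and so did not follow it. PSMD9 ranged from 69.5 to 95.7 CPM, and the entry RP11-87C12.2 covers 99.7% of it. RP11-87C12.2 stood at 68.0 CPM (responder) and 58.8 CPM (non-responder) after therapy, and 82.1 CPM (responder) and 69.6 CPM (non-responder) before it. It had the same order of libraries as PSMD9, and its part in the PSMD9 level was not tested. Of the 4 chaperones of 20S assembly, PSMG1 stood at 19.4 CPM (responder) and 14.6 CPM (non-responder) after therapy, and 20.9 CPM (responder) and 12.5 CPM (non-responder) before it, with the responder higher at both times. Its partner PSMG2 stood at 59.6 CPM (responder) and 78.0 CPM (non-responder) after therapy, and 57.1 CPM (responder) and 71.0 CPM (non-responder) before it, with the responder lower at both times, although both work as 1 heterodimer. PSMG3 stood at 15.1 CPM (responder) and 21.9 CPM (non-responder) after therapy, and 32.7 CPM (responder) and 40.8 CPM (non-responder) before it. The antisense entry PSMG3-AS1, over 25.4% of PSMG3, stood at 9.72 CPM (responder) and 0.402 CPM (non-responder) after therapy, and 7.05 CPM (responder) and 0.644 CPM (non-responder) before it, opposite to PSMG3 by response. PSMG4, its partner, ranged from 12.8 to 21.1 CPM.

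Among the activators, PSME4 and PSME3 differed in opposite directions. PSME4 (chromosome 2: 53864067 to 53970840), which encodes the large activator PA200, known in mouse for a part in degrading acetylated histones during sperm formation, stood at 33.9 CPM (responder) and 55.3 CPM (non-responder) after therapy, and 37.9 CPM (responder) and 93.9 CPM (non-responder) before it. Both responder libraries lay below both non-responder libraries, by 1.63-fold after therapy (log2 ratio -0.71, 95% interval -0.76 to -0.65) and by 2.48-fold before it (log2 ratio -1.31, 95% interval -1.37 to -1.25). It was the single gene of the set past 1.5-fold in this direction at both times, where 7.32% of all genes were. PSME3, the nuclear activator PA28-gamma, stood at 181 CPM (responder) and 139 CPM (non-responder) after therapy, and 135 CPM (responder) and 97.2 CPM (non-responder) before it. Its entry shares 46.3% of its length with that of BECN1, which stood between 193 and 222 CPM. PSME1 stood at 687 CPM (responder) and 541 CPM (non-responder) after therapy, and 859.8 CPM (responder) and 812 CPM (non-responder) before it, and PSME2 at 353 CPM (responder) and 325 CPM (non-responder) after therapy, and 475 CPM (responder) and 418 CPM (non-responder) before it. Both PA28 genes, PSME1 and PSME2, were lower after than before therapy in responder and in non-responder.

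Libraries after therapy were compared with those before therapy in responder and in non-responder, and most proteasome genes stood lower after therapy. The median log2 ratio was -0.17 in the responder, against 0.07 over 12265 genes, and -0.15 in the non-responder, against 0.07 over 12641 genes. The level after therapy was lower in both for 25 of 46 genes (54.3%), against 30.3% of all genes, and higher in both for 9 (19.6%), against 38.3%. Scaled by library size alone, which moves the median of all genes in the responder to -0.04, 27 were lower and 4 higher in both. Shares of all genes were not computed for that scaling. Both libraries after therapy lay below both before therapy for 18 genes (39.1%), against 20.3%, and above both for 2 (4.35%), PSME3 and, not with that scaling, PSMF1, against 26.1%. The 18 held 5 of the 6 ATPases. No gene of the set was at least 1.5-fold higher after therapy, where 20.9% of all genes were in the responder (8.5% at least 2-fold) and 26.9% in the non-responder (15.6% at least 2-fold). In the responder 4 genes (PSMG3, PSMB5, PSMC4, PSMB6) were at least 1.5-fold lower, where 13.6% of all genes were, and 2 of them, PSMG3 and PSMB5, at least 2-fold (4.7%). In the non-responder 9 were at least 1.5-fold lower (19.3%): PSMC2, PSMB4, PSMG3, PSME4, PSMD11, PSMG4, PSMC1, PSMD7 and PSME1, and none was at least 2-fold lower (8.25%).

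PSMG3 stood lower after therapy in both, at 15.1 CPM after against 32.7 CPM before therapy for the responder (log2 ratio -1.12, 95% interval -1.20 to -1.03) and 21.9 CPM after against 40.8 CPM before therapy for the non-responder (log2 ratio -0.90, 95% interval -0.98 to -0.82). PSMB4 stood at 54.0 CPM after against 79.6 CPM before therapy for the responder and 66.8 CPM after against 131 CPM before therapy for the non-responder. PSMB6, PSMA7 and PSMC3 had nearly the same ratio in both, with log2 values of -0.62 in the responder and -0.58 in the non-responder for PSMB6, -0.52 and -0.48 in that order for PSMA7, and -0.44 and -0.45 for PSMC3. PSME3 was higher after therapy in both (log2 ratio 0.43, 95% interval 0.39 to 0.46 in the responder; log2 ratio 0.52, 95% interval 0.48 to 0.56 in the non-responder), as were PSMD10 and PSMD1. The monocyte and neutrophil markers also differed by time, with sums of 2004 CPM after against 224 CPM before therapy in the responder and 9312 CPM after against 257 CPM before therapy in the non-responder, and their part in these differences was not tested. PSMB5 differed in direction, at 19.9 CPM after against 41.0 CPM before therapy for the responder and 18.9 CPM after against 14.3 CPM before therapy for the non-responder.

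**Figure D4:**
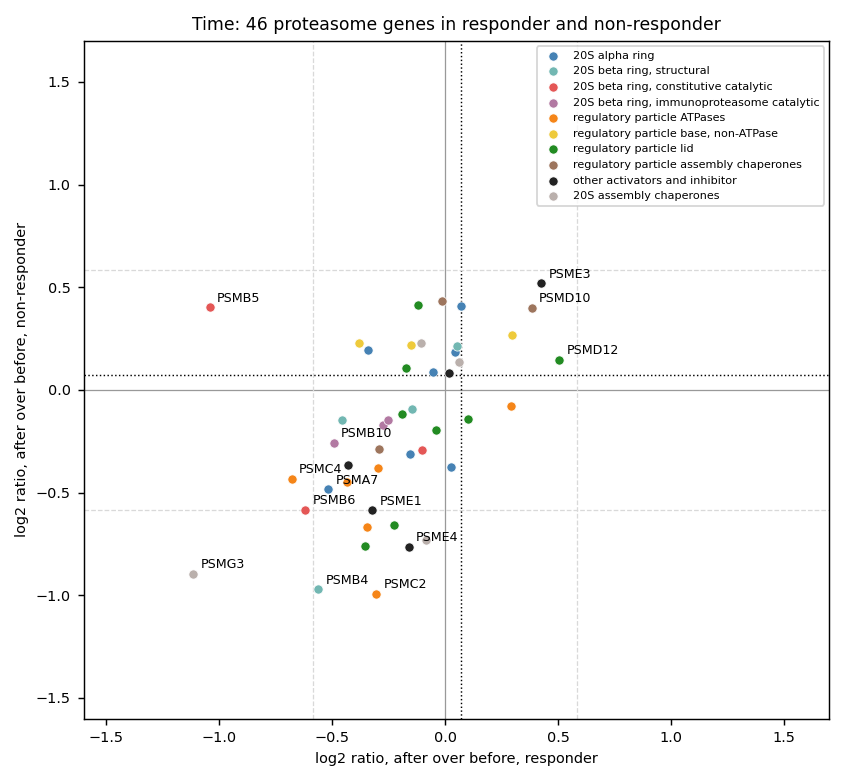
Log2 ratio of after over before therapy in the responder (horizontal) and the non-responder (vertical) for the 46 proteasome genes, coloured by role. Dotted lines mark the median of all genes and dashed lines 1.5-fold. Most points lie in the lower left, PSMG3 furthest along the diagonal, and PSMB5 lies in the upper left.

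A model with terms for response and time, fitted to the 4 libraries across 24113 genes, called no gene of the set by edgeR's quasi-likelihood test. For response it called 0 genes in all at an adjusted p under 0.05 (0%) and, at an unadjusted p under 0.05, 2119 (8.79%). The 47 proteasome genes tested were the 46 and PSMA8. Of them, 6 (12.8%) had an unadjusted p under 0.05, 5 higher in the responder libraries (10.6%, against 4.92% of all genes) and 1 lower (2.13%, against 3.87%). The fitted log2 ratio of PSME4 was -1.01 ± 0.256 SE (unadjusted p = 0.0181; adjusted p = 0.558). That of PSMA5 was 0.63 ± 0.180 SE (unadjusted p = 0.0264; adjusted p = 0.558) and that of PSMD10 0.64 ± 0.201 SE (unadjusted p = 0.0352; adjusted p = 0.559). PSMB9 was 0.52 ± 0.170 SE (unadjusted p = 0.0393; adjusted p = 0.564), PSMD14 0.71 ± 0.238 SE (unadjusted p = 0.0428; adjusted p = 0.565) and PSMB10 0.51 ± 0.179 SE (unadjusted p = 0.0475; adjusted p = 0.565). PSMB8 was 0.31 ± 0.169 SE (unadjusted p = 0.144; adjusted p = 0.636). PSMC2 was -0.57 ± 0.244 SE (unadjusted p = 0.0831; adjusted p = 0.586). PSMB5 was 0.80 ± 0.464 SE (unadjusted p = 0.162; adjusted p = 0.653). DESeq2 on the same design called 903 of 18970 genes for response (4.76%; 2.24% higher, 2.52% lower), among them 1 of the set, PSME4, with a log2 ratio of -1.02 and an adjusted p of 0.0370. By limma-voom 0 genes were called. Over all alternatives to the quasi-likelihood fit, the adjusted p of PSME4 lay between 0.0370 and 1.00, and it was lower in both pairs of libraries.

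For time the quasi-likelihood test also called 0 genes at an adjusted p under 0.05 (0%), and 2732 at an unadjusted p under 0.05 (11.3%). Of the 47 proteasome genes, 5 (10.6%) had an unadjusted p under 0.05, all lower after therapy, where 4.43% of all genes were lower and 6.9% higher at that p. The fitted log2 ratio of PSMG3 was -1.01 ± 0.257 SE (unadjusted p = 0.0183; adjusted p = 0.412), PSMB4 -0.77 ± 0.212 SE (unadjusted p = 0.0238; adjusted p = 0.412) and PSMB6 -0.60 ± 0.175 SE (unadjusted p = 0.0273; adjusted p = 0.412). PSMA7 was -0.50 ± 0.168 SE (unadjusted p = 0.0425; adjusted p = 0.428) and PSMC4 -0.56 ± 0.189 SE (unadjusted p = 0.0440; adjusted p = 0.432). PSME3 was 0.47 ± 0.175 SE (unadjusted p = 0.0560; adjusted p = 0.450). DESeq2 called 1509 of 20373 genes for time (7.41%; 5.26% higher, 2.15% lower) and limma-voom 2, among them PSMG3 by DESeq2 alone of the set (adjusted p = 0.0432, with a range of 0.0432 to 0.965 over all alternatives). The model has 1 residual degree of freedom and treats a response difference that changes with time as error.

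Genes that work beside the proteasome were taken from 6 lists, and the quasi-likelihood test called none of their genes for response or time. The partner and assembly list held 10 genes with no PSM symbol. Its median log2 ratio of responder over non-responder was 0.03 after and -0.01 before therapy, and the number at least 1.5-fold higher in the responder was 2 after and 2 before therapy (17.4% and 23.5% of all genes), and the number lower was 0 after and 1 before therapy (15.5% and 19%). POMP, which drives the maturation of the core, stood at 100.1 CPM (responder) and 148 CPM (non-responder) after therapy, and 130.4 CPM (responder) and 193 CPM (non-responder) before it, so both responder libraries lay below both non-responder libraries, the reverse of PSMB8, PSMB9 and PSMB10. AKIRIN2, needed for import of proteasomes into the nucleus, stood at 76.9 CPM (responder) and 115 CPM (non-responder) after therapy, and 64.5 CPM (responder) and 99.0 CPM (non-responder) before it, with the same separation. UBE3C, a ubiquitin ligase of the proteasome, stood at 111 CPM (responder) and 59.0 CPM (non-responder) after therapy, and 51.1 CPM (responder) and 32.2 CPM (non-responder) before it. UCHL5, a deubiquitinase bound to the proteasome, stood at 106 CPM (responder) and 55.6 CPM (non-responder) after therapy, and 71.1 CPM (responder) and 56.7 CPM (non-responder) before it. ADRM1, a ubiquitin receptor that anchors UCHL5, was lower after therapy, and KIAA0368 (ECPAS), a scaffold that binds the 26S particle, was higher. ADRM1 stood at 56.5 CPM after against 95.8 CPM before therapy for the responder and 52.7 CPM after against 104 CPM before therapy for the non-responder. KIAA0368 stood at 102 CPM after against 35.9 CPM before therapy for the responder and 81.9 CPM after against 27.5 CPM before therapy for the non-responder.

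Ubiquitin genes had medians of -0.27 after and -0.17 before therapy over 5 genes, and the number at least 1.5-fold higher in the responder was 1 after and 0 before therapy (17.4% and 23.5% of all genes), and the number lower was 1 after and 1 before therapy (15.5% and 19%). UBA1, the main ubiquitin-activating enzyme, stood at 241 CPM (responder) and 119 CPM (non-responder) after therapy, and 161 CPM (responder) and 136 CPM (non-responder) before it. Of the 9 shuttle and segregase genes found, with medians of 0.05 after and -0.18 before therapy, the number at least 1.5-fold higher in the responder was 1 after and 1 before therapy (17.4% and 23.5% of all genes), and the number lower was 1 after and 2 before therapy (15.5% and 19%). RAD23B, a shuttle that brings ubiquitin-tagged proteins to the proteasome, stood at 8.55 CPM (responder) and 17.9 CPM (non-responder) after therapy, and 12.6 CPM (responder) and 40.6 CPM (non-responder) before it, lower in the responder by 2.09-fold after and 3.23-fold before therapy. UBQLN1, another shuttle, stood at 141 CPM (responder) and 203 CPM (non-responder) after therapy, and 181 CPM (responder) and 273 CPM (non-responder) before it. Both responder libraries lay below both non-responder libraries. VCP, the segregase that extracts tagged proteins, ranged from 344 to 426 CPM.

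NFE2L1, the transcription factor known to restore proteasome genes when proteasomes are inhibited, stood at 19.0 CPM (responder) and 15.2 CPM (non-responder) after therapy, and 19.5 CPM (responder) and 22.9 CPM (non-responder) before it. Its activating protease DDI2 stood at 28.5 CPM (responder) and 17.9 CPM (non-responder) after therapy, and 15.7 CPM (responder) and 20.3 CPM (non-responder) before it. Both had opposite signs at the 2 times. The transcription control list, of which these 2 are part, held 5 genes with at least 5 CPM in a library, with medians of 0.31 after and -0.23 before therapy, and the number at least 1.5-fold higher in the responder was 1 after and 0 before therapy (17.4% and 23.5% of all genes), and the number lower was 1 after and 0 before therapy (15.5% and 19%). MAFG, a small partner of such factors, was the one at least 1.5-fold lower after therapy, at 3.05 CPM (responder) against 11.6 CPM (non-responder) after therapy.

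Genes of class I peptide supply had medians of 0.45 after and 0.08 before therapy over 10 genes, and the number at least 1.5-fold higher in the responder was 3 after and 3 before therapy (17.4% and 23.5% of all genes), and the number lower was 0 after and 0 before therapy (15.5% and 19%). After therapy 9 of 10 were higher in the responder (55.1% of all genes), and before therapy 5 of 10 were (53.4% of all genes). TAP1 was 1.87-fold higher in the responder after therapy and 1.57-fold higher before therapy. ERAP1, which trims peptides in the endoplasmic reticulum, stood at 218 CPM (responder) and 162 CPM (non-responder) after therapy, and 129.6 CPM (responder) and 76.6 CPM (non-responder) before it. TAP2, the partner of TAP1, had opposite signs, at 36.8 CPM (responder) and 42.7 CPM (non-responder) after therapy, and 33.0 CPM (responder) and 16.6 CPM (non-responder) before it. NLRC5, an activator of class I and immunoproteasome genes, stood at 489.5 CPM (responder) and 361 CPM (non-responder) after therapy, and 379 CPM (responder) and 422 CPM (non-responder) before it. B2M, the light chain of class I, ranged from 20813 to 27046 CPM.

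The interferon-gamma response list had medians of 0.49 after and -0.12 before therapy over 12 genes, and the number at least 1.5-fold higher in the responder was 4 after and 4 before therapy (17.4% and 23.5% of all genes), and the number lower was 2 after and 2 before therapy (15.5% and 19%). IRF1, a factor that induces the immunoproteasome genes, stood at 802 CPM (responder) and 585 CPM (non-responder) after therapy, and 389.9 CPM (responder) and 478 CPM (non-responder) before it. GBP4, an interferon-induced GTPase, stood at 284 CPM (responder) and 93.5 CPM (non-responder) after therapy, and 98.4 CPM (responder) and 64.8 CPM (non-responder) before it. These genes were higher after than before therapy, with median log2 ratios of 0.83 in the responder and 0.26 in the non-responder, all 12 higher in the responder libraries, where 54.6% of all genes were, and 10 in the non-responder libraries, where 53.6% were. The monocyte and neutrophil markers were also higher after therapy, with sums of 2004 CPM after against 224 CPM before for the responder and 9312 CPM after against 257 CPM before for the non-responder, and their part was not tested. PSMB8, PSMB9 and PSMB10 went the other way with time. Their log2 ratios were -0.28, -0.25 and -0.49 in the responder and -0.17, -0.14 and -0.26 in the non-responder. The median of the 46 proteasome genes was also negative, at -0.17 in the responder and -0.15 in the non-responder. IRF8, also a gene of dendritic cells and B cells, stood at 16.6 CPM (responder) against 107 CPM (non-responder) after therapy. There the 15 monocyte and neutrophil markers summed to 2004 CPM (responder) and 9312 CPM (non-responder). The 8 dendritic cell markers summed there to 7.20 CPM (responder) and 76.6 CPM (non-responder). The 6 B cell markers summed to 87.5 CPM (responder) and 74.7 CPM (non-responder). Of the 2 of them at or above 5 CPM, MS4A1 was higher in the responder and CD79B lower. The part of other cells' RNA in the IRF8 levels was not tested.

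**Figure D5:**
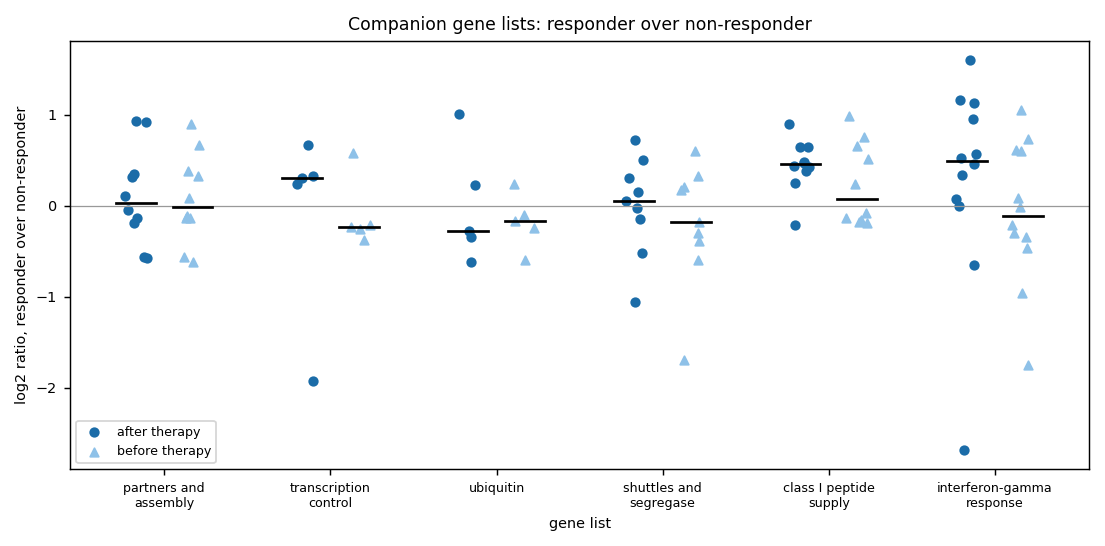
Log2 ratio of responder over non-responder for each gene of the 6 companion lists with at least 5 CPM in a library, after therapy (circles) and before therapy (triangles), with list medians as black bars. Class I peptide supply and the interferon-gamma response have higher medians after therapy, at 0.45 and 0.49, than before therapy, at 0.08 and -0.12, and these differences between times were not tested.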

How the data were processed

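Sorted cells gave 1 ng of RNA per library for SMARTer cDNA synthesis and paired Illumina HiSeq reads of 101 bases, per the labels' protocols. The authors used bcl2fastq 1.8.4 and TopHat2 on hg38, per the submitters' processing notes. How genes were counted (tool, strand, annotation) is not given in the sources used here. Deposited values are raw counts for Ensembl genes with a coding length each, per the file headers. Molecular identifiers are not mentioned, so intervals and floors cover counting error only.

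Of 64253 entries, 4146 on alternate or unplaced contigs and 617 sex-informative ones were left out, although library totals include them. Ratios between 2 libraries are of TMM-scaled CPM (prior count 0.5; exact conditional binomial 95% intervals) among genes at or above 5 CPM in one of them. Ratios of subunit sums have Poisson intervals. edgeR 4.0.16 in R 4.3.3 fitted response plus time (filterByExpr, quasi-likelihood test, two-sided, Benjamini-Hochberg over all genes, threshold 0.05; coefficient of variation 0.66). Each SE was derived from the log2 ratio and its F statistic. Alternatives were DESeq2 1.42.0, limma-voom (limma 3.58.1), other scalings, filters and prior counts, and leaving out a library in a fit of response or time alone. With no stated biological replicates, p-values reflect spread among these 4 libraries, part of which may be technical.

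The naming rule took the catalytic, activator, inhibitor and assembly genes, PSMA7, PSMA8, any gene past 2-fold in a pair and up to 4 per direction with the largest ratios, and up to 3 per companion list; further names were chosen after their values were seen, and some listed genes are not reported here. Members and lists were chosen with earlier results of these data known.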

Additional observations from a re-analysis of the deposited data

Results flagged for a closer look

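The PSMB8 to PSMB5 ratio moved in opposite directions between responder and non-responder at the 2 times, with a log2 difference of 0.18 after and -1.16 before therapy, 1.34 apart. The same 4 values, read by time, give 0.77 in the responder and -0.57 in the non-responder, also 1.34 apart. The PSMB10 to PSMB7 ratio moved by -0.39 with time in the responder and by 0.04 in the non-responder (95% interval -0.02 to 0.09), a difference of -0.43. With 1 library a group none of these differences was tested.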

How the results depend on the processing

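No paired analysis was possible because the labels tie no libraries to the same patient; the main model already holds response and time as terms. No proteasome gene was called for response or time under the other edgeR scalings, without a filter or with limma-voom. Leaving out a library meant dropping the other term too, since no residual degree of freedom was left otherwise, and set 2 libraries against 1 that was assumed to vary like the others; these fits called 0 to 0 genes, which says nothing about stability. DESeq2 called 1 of the set for each, with 903 genes for response and 1509 for time in all. For time, limma-voom and the fit without a filter each called 2 genes. Scaling by library size alone moved the median of all genes after against before therapy in the responder from 0.07 to -0.04. With it the median of the set was -0.27 there. For responder over non-responder before therapy it was 0.22, against 0.15 over all genes with the same scaling. With it 7 genes were 1.5-fold lower after therapy in the responder, 2 were 2-fold lower in the non-responder, 3 were 1.5-fold lower and 2 were 2-fold higher in the responder before therapy, and the numbers higher in both and lower in both after therapy were 4 and 27. Shares of all genes past these folds were not computed with this scaling, so these counts cannot be set against all genes. The sign of PSMB6 and PSMD11 before therapy, and of 7 genes with time in the responder, turned with it, PSMA1, PSMA3, PSMA4, PSMB2, PSMD3, PSMF1 and PSMG2. A minimum of 1 CPM gave 0.0946 for responder over non-responder before therapy. Chosen after seeing the data, a smaller set left out the 18 genes that another expressed entry overlaps by at least 10%. Its medians for responder over non-responder were 0.10 after and 0.0866 before therapy, against 0.07 and 0.06 over all genes. Overlapped genes were not left out of all genes.

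The log2 difference in the immunoproteasome ratio between responder and non-responder kept its sign in each alternative. The PSMB8 to PSMB5 position taken alone, which was not among them, gave -1.16 before therapy. Each alternative kept genes overlapped by other expressed entries, so none of them can show the part of such reads. Also chosen after seeing the data, the log2 difference was 0.46 after and 0.68 before therapy without PSMB8 and PSMB5. Without PSMB9 and PSMB6 it was 0.27 and 0.30. Before therapy it was 0.31 without PSMB10 and PSMB7, and 0.79 for the median of the 3 positions. With time it was less stable. In the responder it was -0.39 for that median, 0.0594 without PSMB8 and PSMB5, -0.0426 without PSMB9 and PSMB6, and 0.42 without PSMB10 and PSMB7. In the non-responder it was 0.0374, 0.28, -0.00922 and 0.33 in the same order. The cause of these changes was not tested.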
